A study of Mus musculus with 2 samples.

Results

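The epithelium-specific ETS genes examined here were Elf3, Ehf, Elf5 and Spdef, and all 4 were chosen by name. They were set beside the 21938 protein-coding genes of the annotation and 22 other genes of the ETS family. Regions of the Etv4 and Etv5 ChIP-seq lists were assigned to a gene when they lay inside it or within 50 kb of it in mm10. By this rule, 3 of 13636 Etv4 regions and 0 of 8297 Etv5 regions belonged to the 4 genes, and none of the 3 regions was inside a gene of the group.

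EpRas cells, mouse mammary gland epithelial EpH4 cells transformed with oncogenic H-Ras, had received 1 ng/ml TGF-β3 for 1.5 h. This treatment and the Ras transgene were shared by both libraries, 1 for Etv4 (rabbit polyclonal antibody) and 1 for Etv5 (mouse monoclonal antibody). In ChIP-seq, DNA fragments crosslinked to a protein are recovered with an antibody and sequenced, and stretches rich in fragments are listed as regions. With 1 library per antibody and no deposited read counts, no difference could be tested, and sequencing depth is unknown. Neither untreated cells nor parental EpH4 cells nor control libraries were analysed here. The lists hold no RNA level, so expression of the 4 genes and of epithelial markers was not measured in these data.

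ETS factors share a DNA-binding domain that recognises a GGAA core. Most members of the family are widely expressed or are found in blood and vessel cells, whereas Elf3, Ehf, Elf5 and Spdef are largely restricted to epithelia. Elf5 directs the differentiation of milk-producing luminal cells in the mammary gland. Elf3 and Ehf take part in the differentiation of simple and stratified epithelia, and Spdef in that of secretory cells such as goblet cells. Etv4 and Etv5 belong to a different branch of the family, the PEA3 group, which acts downstream of receptor tyrosine kinases and Ras.

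The 3 Etv4 regions are shown first, because they are all that the lists contained near these genes. Each line gives the plus strand around the midpoint of the region, from the GRCm38 assembly, and capitals mark matches to the patterns searched.
Elf3, intergenic Etv4 region, chr1:135205524-135205823: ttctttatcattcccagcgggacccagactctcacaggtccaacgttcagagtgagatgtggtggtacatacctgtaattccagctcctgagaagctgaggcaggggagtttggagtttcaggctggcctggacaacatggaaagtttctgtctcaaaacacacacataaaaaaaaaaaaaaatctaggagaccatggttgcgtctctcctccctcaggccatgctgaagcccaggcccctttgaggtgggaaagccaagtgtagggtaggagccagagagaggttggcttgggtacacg
Elf3, Etv4 region in Rnpep, chr1:135283729-135284008: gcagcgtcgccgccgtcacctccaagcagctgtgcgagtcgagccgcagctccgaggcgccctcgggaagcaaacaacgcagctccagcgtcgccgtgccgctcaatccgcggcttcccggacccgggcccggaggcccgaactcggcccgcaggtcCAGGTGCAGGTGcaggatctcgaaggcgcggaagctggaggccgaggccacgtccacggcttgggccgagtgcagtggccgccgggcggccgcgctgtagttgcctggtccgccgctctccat
Elf5, Etv4 region in an intron of Cat, chr2:103464502-103464801: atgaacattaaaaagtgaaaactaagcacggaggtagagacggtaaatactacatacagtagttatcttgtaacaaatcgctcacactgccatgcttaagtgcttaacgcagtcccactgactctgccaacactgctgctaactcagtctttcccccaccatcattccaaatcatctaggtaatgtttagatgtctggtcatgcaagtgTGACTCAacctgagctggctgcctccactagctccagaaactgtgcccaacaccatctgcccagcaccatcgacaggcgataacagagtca

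None of the 3 regions contained the ETS pattern, CAGGAAGT or CCGGAAGT on either strand, within a 500 bp window centred on the region. This pattern was present in 10.2% of the 13630 nuclear Etv4 regions (1385 regions, exact 95% interval 9.66 to 10.7%), so its absence from 3 regions is close to what the list as a whole shows. The shorter GGAA core, on either strand, occurred 7 times in the whole intergenic region, 3 times in that in Rnpep and 6 times in that in Cat. These core counts were not set beside the list. The AP-1 pattern, TGACTCA or its complement TGAGTCA, was present in the region in Cat, 63 bp from the midpoint. In the Etv4 list, 37.4% of regions contained it (interval 36.6 to 38.2%). The region in Rnpep contained 2 adjoining copies of the E-box CAGGTG, the sequence recognised by Snail and Zeb repressors, and 30.2% of Etv4 regions contained at least 1 copy. The other patterns searched in these windows were the RUNX pattern (TGTGGTT or TGTGGTC), the Grainyhead-like pattern (AACCNGTT) and CCGGATGT, a GGAT variant preferred by Spdef. These had no match in any of the 3 regions. In the Etv4 list they were present in 24.7, 3.54 and 0.924% of regions.

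Elf3 had the most regions of the group. The gene (ENSMUSG00000003051.13) occupies chr1:135253575-135258568 on the minus strand and is 4.99 kb long. The first of its 2 Etv4 regions lay at chr1:135205426-135205921 in intergenic sequence, 47.7 kb from the 3′ end of the gene. Its midpoint was 52.9 kb from the start of Elf3 but 37.99 kb from the start of Gpr37l1, a G protein-coupled receptor gene. The second lay at chr1:135283723-135284033, 25.2 kb beyond the start of Elf3. It overlapped the first exon of Rnpep, which encodes an aminopeptidase, across coding and UTR sequence, and its midpoint was 0.206 kb from the Rnpep start. The printed stretch leaves out 20 bases of UTR. No Etv5 region was listed near Elf3, and the nearest was 152.5 kb from the gene.

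Elf5 (ENSMUSG00000027186.14, chr2:103411688-103450989, plus strand, 39.3 kb) had 1 Etv4 region, at chr2:103464379-103464923. It was 13.4 kb downstream of the gene, in an intron of the neighbouring gene Cat, which encodes catalase. The midpoint was 53.0 kb from the start of Elf5 and 20.5 kb from the start of Cat. The nearest Etv5 region lay 181.9 kb from Elf5. It overlapped an Etv4 region inside Abtb2.

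Ehf (ENSMUSG00000012350.15, chr2:103263433-103303278, minus strand, 39.8 kb) had no region of either list. Elf5 and Ehf are neighbours on chromosome 2, and their 50 kb windows did not overlap. No Etv4 region was listed between 103074266, in Apip, and 103464379, in Cat. This stretch of 390.1 kb contained Ehf and Elf5 in full. In the Etv5 list the stretch extended to 103632868 and measured 558.6 kb. Stretches at least as long surrounded the starts of 46.5 and 47.2% of protein-coding genes, so neither length stood apart from that of most genes. The nearest regions to Ehf were 161.1 kb away for Etv4, the region in Cat, and 189.2 kb away for Etv5.

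Spdef (ENSMUSG00000024215.14, chr17:27714352-27728955, minus strand, 14.6 kb) likewise had 0 regions in both lists. The nearest Etv4 region (chr17:27634811-27635231) and the nearest Etv5 region (chr17:27634540-27635137) overlapped each other, 79.1 and 79.2 kb from the gene. Both overlapped an exon of Rps10, a ribosomal protein gene, and the nearest protein-coding start was that of the overlapping gene RPS10-NUDT3.

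**Figure D1:**
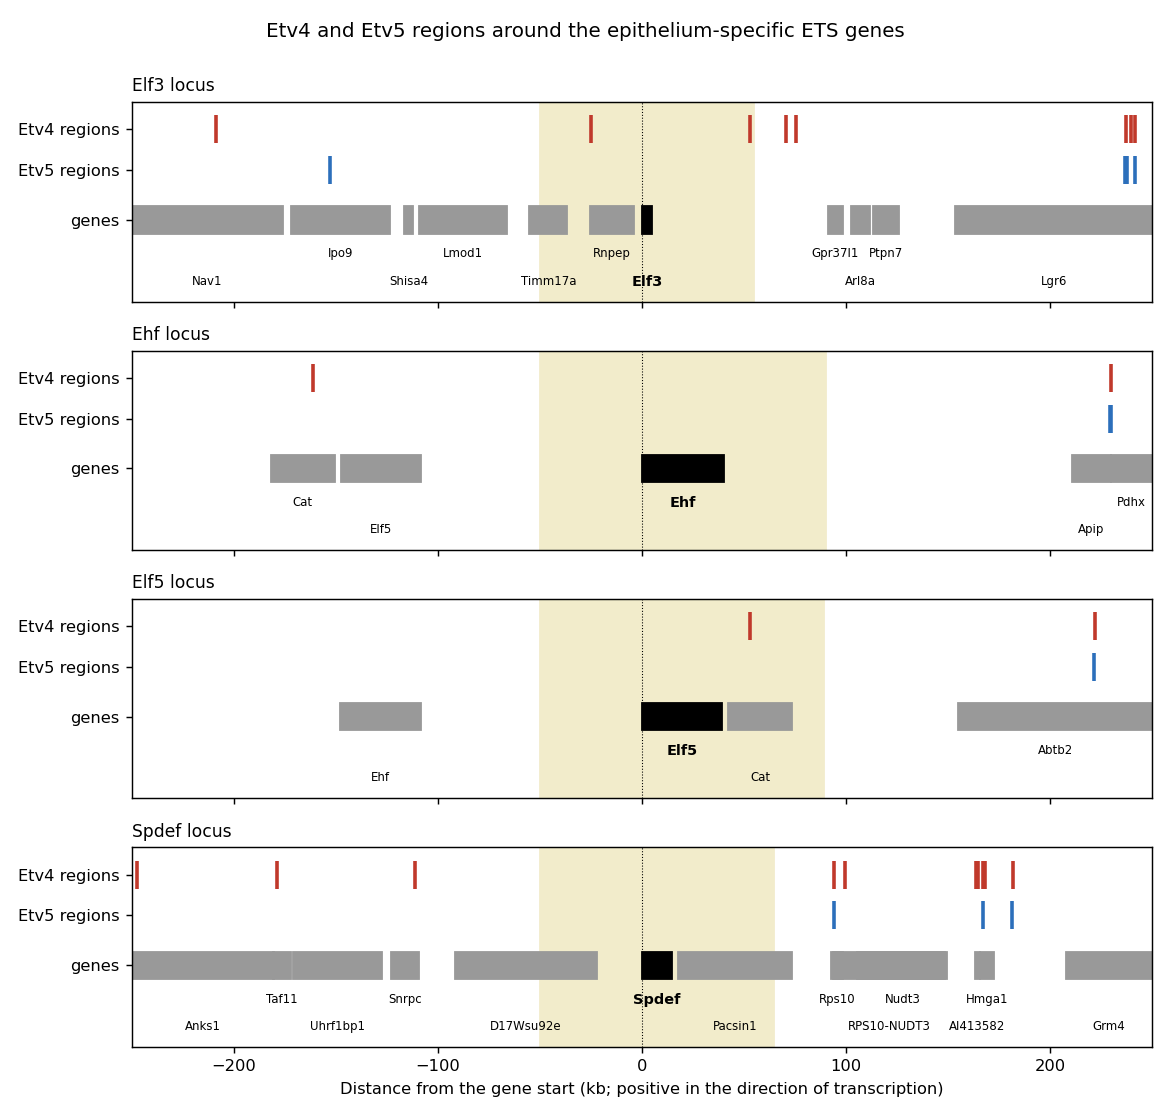
Etv4 (red) and Etv5 (blue) region midpoints from 250 kb before to 250 kb after the start of each gene, on an axis of distance in kb that runs in the direction of transcription. Black boxes are the 4 genes, grey boxes other protein-coding genes, and the shaded band is the gene with 50 kb on each side. Within the bands there are 3 red ticks, of which 2 are at Elf3 and 1 at Elf5, and no blue tick.

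The region numbers placed these 3 regions in the later part of the Etv4 list. Each list numbers its regions from 1 upwards by a criterion that is not stated, and low numbers fall on long regions (Spearman correlation -0.90 across the Etv4 regions, which are not independent replicates). The region in Cat had number 8792, the intergenic region 11369 and the region in Rnpep 11917, of 13636. Their lengths were 545, 496 and 311 bp, all below the list median of 589 bp, and 59.5, 66.3 and 95.7% of Etv4 regions were longer. At the 50 kb limit, the intergenic region at 47.7 kb from Elf3 was the last one inside. The next Etv4 region, at chr1:135188039-135188368 and 65.2 kb from Elf3, was outside.

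Overlap of the lists at these genes is not a separate result, because no Etv5 region was listed within 50 kb of any of them. None of the 3 Etv4 regions overlapped an Etv5 region (exact 95% interval of the share, 0 to 70.8%), compared with 37.8% of all Etv4 regions (5150 regions, interval 37.0 to 38.6%). The nearest Etv5 region was 182.9 kb away for the intergenic region, 127.0 kb for the region in Rnpep and 167.9 kb for that in Cat. With 3 regions, the interval includes the share of the whole list.

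The counts were set beside those of all protein-coding genes. At least 1 Etv4 region within 50 kb was found at 2 of the 4 genes and at 53.4% of protein-coding genes. For Etv5, the count was 0 of 4 genes, compared with 42.7%. Regions inside the gene were found at 0 of 4 genes in both lists, compared with 23.0% for Etv4 and 14.7% for Etv5. A region whose nearest protein-coding gene start was its own was found for 0 of 4 genes, compared with 30.4 and 22.6%. Among the 11708 genes with an Etv4 region within 50 kb, 5675 (48.5%) had none that was nearest to their own start, as was the case for Elf3 and Elf5. No region of either list within 50 kb, as at Ehf and Spdef, was found for 8864 genes (40.4%). With Etv4, the share among the 4 genes was thus close to the background, whereas the Etv5 count of 0 of 4 was below it and was not tested. Ehf and Elf5 lay in the same stretch of 558.6 kb without an Etv5 region, so the 4 genes are not 4 separate observations.

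The windows searched, each gene with 50 kb on either side, measured 105.0 kb for Elf3, 114.6 kb for Spdef, 139.3 kb for Elf5 and 139.8 kb for Ehf, and the median over protein-coding genes was 117.4 kb (quartiles 106.5 and 145.1 kb). The Elf3 window was thus below the lower quartile. Fewer other protein-coding genes reached into them, with 0 at Ehf, 1 at Elf5 and 2 each at Elf3 and Spdef, compared with a median of 3. Among the 15829 protein-coding genes of 40 kb or less, a limit chosen after the values were seen, 51.3% had an Etv4 and 40.6% an Etv5 region within 50 kb. Mappability was also measured. Of the 36-base sequences in the windows, 3.32% at Ehf, 3.38% at Elf5, 6.60% at Spdef and 8.33% at Elf3 occurred more than once on the chromosomes, and none contained unknown bases. In the 3 Etv4 regions the share was 0.

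Counts at larger distances differed among the 4 genes. Within 100 kb there were 4 Etv4 regions at Elf3, 2 at Spdef, 1 at Elf5 and 0 at Ehf, and the median of protein-coding genes was 1. Within 500 kb there were 24 at Elf3, 21 at Ehf, 15 at Elf5 and 13 at Spdef, with a median of 7 and an upper quartile of 14. Only 7.39% of protein-coding genes had more Etv4 regions within 500 kb than Elf3, and 10.3% had more than Ehf. The counts of Etv5 regions within 500 kb were 14 at Elf3, 10 at Ehf, 9 at Elf5 and 3 at Spdef, with a median of 4, so Spdef was below the median in this list and the other 3 genes above it. Ehf and Elf5 share most of the sequence counted at this distance, so their counts are not separate observations.

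**Figure D2:**
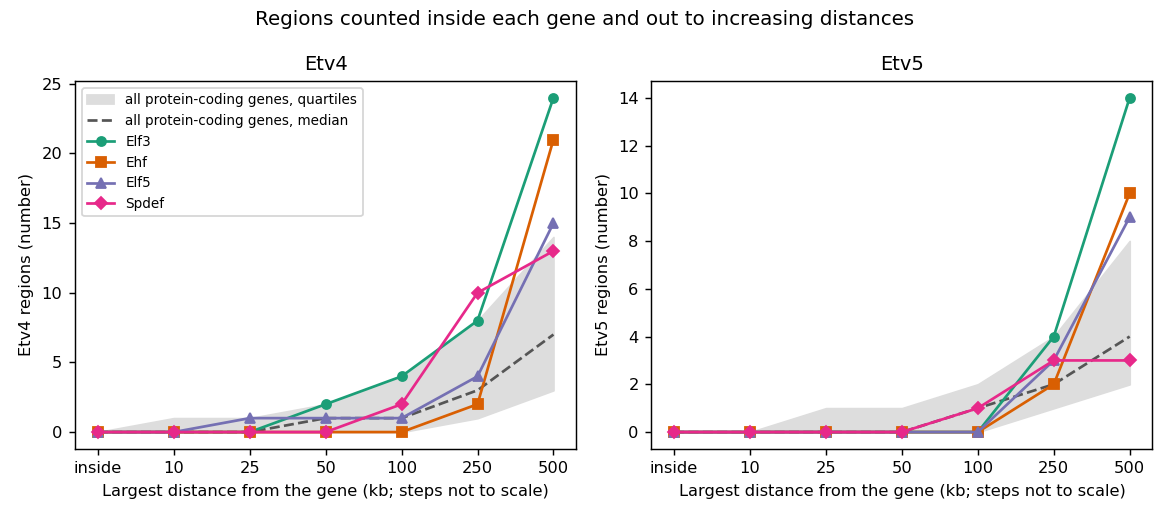
Number of Etv4 regions (left) and Etv5 regions (right) inside each gene and within increasing distances of it, with 1 line per gene. The dashed line is the median and the grey band the quartiles of 21938 protein-coding genes. All 4 genes are at 0 up to 10 kb in both panels, and Elf3 reaches 24 Etv4 and 14 Etv5 regions at 500 kb.

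The DNA of the 4 loci was searched for ETS patterns to determine whether sequences of this type were present without a region. The 4 windows held 40 matches, 6 at Elf3, 6 at Ehf, 17 at Elf5 and 11 at Spdef. This corresponded to 5.71, 4.29, 12.2 and 9.60 matches per 100 kb, and the nuclear genome had 7.54. Of the 40 matches, 0 lay under an Etv4 or Etv5 region. Genome-wide, 0.869% of 199648 matches lay under an Etv4 region and 0.377% under an Etv5 region, so a count of 0 among 40 is near this background. Inside the genes there were 5 matches in Ehf, 3 in Elf5 and 2 each in Elf3 and Spdef.

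The match nearest to the start of each gene is given with its flanks, on the strand of the gene and with the match in capitals. A match on the opposite strand reads ACTTCCTG.
Elf3, 0.692 kb inside the gene, in an intron, chr1:135257846-135257905, minus strand: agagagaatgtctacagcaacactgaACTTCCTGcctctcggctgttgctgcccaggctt
Ehf, 0.336 kb inside the gene, in an intron, chr2:103302927-103302956, minus strand: gaggcagctggCAGGAAGTagagcttgtgt
Elf5, 4.88 kb inside the gene, in an intron, chr2:103416539-103416598, plus strand: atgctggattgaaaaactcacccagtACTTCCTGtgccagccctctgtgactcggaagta
Spdef, 0.527 kb before the start, outside annotated genes, chr17:27729452-27729511, minus strand: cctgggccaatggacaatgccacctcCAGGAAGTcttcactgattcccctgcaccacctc

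All 4 were CAGGAAGT matches. The nearest Etv4 region was 25.8 kb away from the match in Elf3, 47.8 kb from that in Elf5, 94.2 kb from that at Spdef and 161.4 kb from that in Ehf. Thus, Elf3, Ehf and Spdef had a match within 1 kb of the start, a distance chosen after the values were seen. The same was found for 21.4% of protein-coding genes (4699 genes), and at 606 of these (12.9%) such a match lay under an Etv4 region and at 226 (4.81%) under an Etv5 region. A match of 8 bases describes the sequence and does not show a binding site.

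AP-1 pattern matches numbered 31 at Elf3, 40 at Ehf, 28 at Elf5 and 28 at Spdef. Their density was 29.5, 28.6, 20.1 and 24.4 per 100 kb, above the 16.4 of the nuclear genome at each of the 4 genes. Under an Etv4 region lay 1 of the 127 matches, that in Cat, and under an Etv5 region none. The genome-wide shares were 1.62 and 0.910%.

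**Figure D3:**
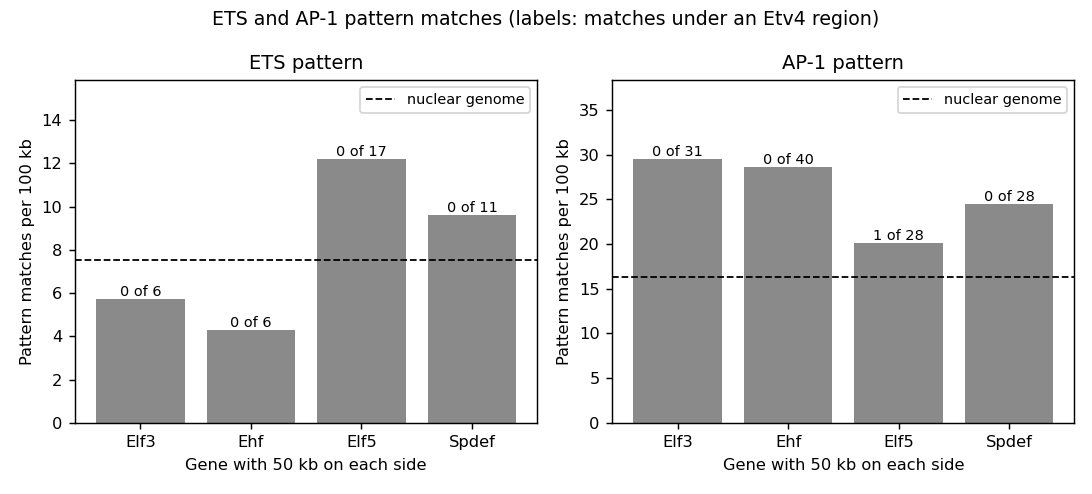
Matches to the ETS pattern (left) and the AP-1 pattern (right) per 100 kb in each gene with 50 kb on each side, with the nuclear genome as a dashed line. The numbers above the bars count the matches under an Etv4 region, which came to 0 of 40 for ETS and 1 of 127 for AP-1.

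The promoters were inspected in the RefSeq table for GRCm38.p6, in the 250 bases before each start. It held 1 promoter of Elf3, 2 of Elf5 and 1 of Spdef, and none was found for Ehf. No region of either list overlapped any of the 4 promoters, compared with 2956 promoters of the table overlapped by an Etv4 region (8.998%) and 1443 by an Etv5 region (4.39%). None of the 4 contained the ETS, AP-1, RUNX, Grainyhead-like or GGAT pattern. The shorter GGAA core, on either strand, occurred 4 times at Elf3, 2 and 1 times in the promoters of Elf5 and 4 times at Spdef. In the table of 32851 promoters, 5.49% contained the ETS pattern, 4.46% AP-1, 7.67% RUNX, 1.79% the Grainyhead-like pattern and 0.469% the GGAT variant. The E-box CAGGTG occurred 1 time at Elf3 and 3 times in the first promoter of Elf5, and 17.2% of promoters contained it at least 1 time. At least 3 copies, a number chosen after the values were seen, were present in 81 promoters (0.247%). The first Elf5 promoter of RefSeq lies within an exon of Elf5 in GENCODE, where the transcript starts further upstream.

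The other genes of the ETS family served as the nearest comparison. Of 22 such genes, 12 had an Etv4 region within 50 kb (35 regions) and 9 had an Etv5 region (24 regions), compared with 2 and 0 of the 4 epithelium-specific genes. A region inside the gene was listed for 7 of the 22 in the Etv4 list and for 6 in the Etv5 list. Ets1, a broadly acting family member, had 11 Etv4 and 8 Etv5 regions. Elk3, a serum response factor partner, had 7 and 3, and Erf, a repressor regulated by ERK, had 5 and 5. These genes account for most of the family's regions, since the median of the other ETS genes was 1 for Etv4 and 0 for Etv5. Ets1 is 121.6 kb long and Elk3 63.7 kb, whereas Erg (227.4 kb) and Fli1 (120.7 kb) had no region, and the part of gene length in these counts was not tested. Among the 12 other ETS genes of 40 kb or less, 6 had an Etv4 region and 4 had an Etv5 region.

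By the sum of differences in Etv4 and Etv5 counts over the 2 libraries, Elf3 was most like Elf2, with 2 Etv4 and 0 Etv5 regions at both. Elf5 was most like Elf1, Elk4 and Spic, each with 1 Etv4 and 0 Etv5 regions. Elf1 and Elk4 differed from it in position, as their Etv4 region was within 2 kb of the gene start. Ehf and Spdef shared their counts of 0 with 9 other ETS genes (Elf4, Elk1, Erg, Etv2, Etv3, Fev, Fli1, Gabpa and Spib). Of the genes encoding the antibody targets, Etv4 had 1 Etv4 and 1 Etv5 region, and Etv5 had 0 Etv4 and 1 Etv5 region. The medians over the 22 other ETS genes, which include both, were 1 and 0.

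**Figure D4:**
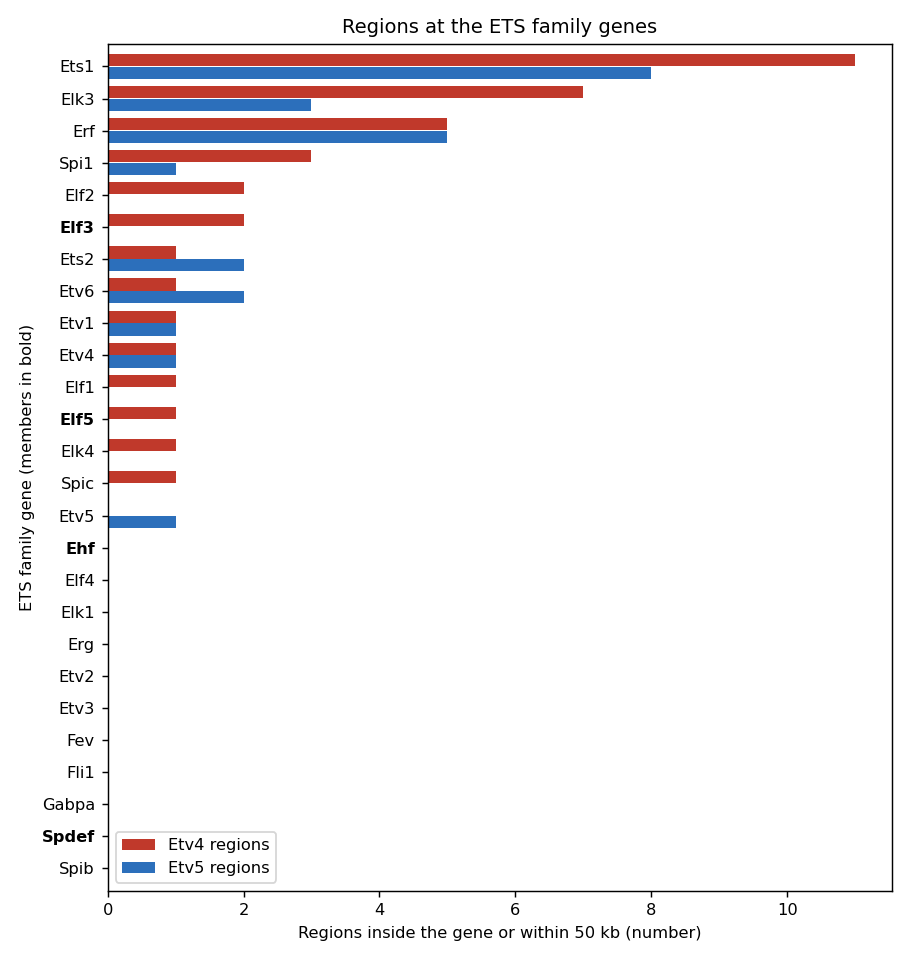
Number of Etv4 (red) and Etv5 (blue) regions inside each of 26 ETS family genes or within 50 kb, with the 4 epithelium-specific genes in bold. Ets1 has the most regions (11 and 8), Elf3 and Elf5 have 2 and 1 Etv4 regions, and Ehf and Spdef are at 0 in both lists.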

How the data were processed

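Both ChIP-seq libraries were sequenced on an Ion Proton. The authors called regions for each library separately with the one-sample mode of CisGenome (window of 300 bp), which uses no control library, so differences in copy number, mappability or open chromatin are not subtracted. The threshold they state is a p-value, and they give no correction of it for multiple testing. The submitters' processing notes name Bowtie and mm10. The deposited BED score was 1000 for every region and was not used, and the lists contain no read count or p-value. Positions are printed counting from 1.

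Gene positions were from GENCODE release M21 and sequence from GRCm38. All nuclear regions ended within their chromosomes. Overlap meant at least 1 bp. The start of a gene was its 5′-most annotated base. Patterns were searched on both strands; the AP-1 words are complements of each other, CCGGAAGT is part of the ETS pattern, and no other pattern contains another. Intervals are exact binomial intervals at 95% and cover counting error only. The 4 genes, the ETS family list and the patterns were chosen with earlier results of these data known, and the genes named were the 4 members, the ETS genes with the most Etv4 regions or the most similar counts, and the gene whose start was nearest to a region. Rps10, which is overlapped by regions, the genes encoding the antibody targets, and Erg and Fli1 were added after their values were seen. Functions for overlap, counting and pattern search were tested on simulated data. Python 3.11.15 was used with matplotlib 3.10.9, numba 0.67.0, scipy 1.17.1, pandas 2.3.3 and numpy 2.4.6.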

Additional observations from a re-analysis of the deposited data

How the results depend on the processing

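The number of Etv4 regions at the 4 genes was 0 at a distance of 10 kb, 7 at 100 kb, 0 in the longer 50% of the list, 0 in the first 50% by region number, and 0 when only regions nearest to the start of one of the 4 genes were counted. It stayed at 3 when regions within 300 bp were merged. The number of Etv5 regions was 1 at 100 kb, near Spdef, and 0 under the 5 other alternatives. Shorter distances and shorter lists lower these counts by construction. Of the Etv4 regions near the 4 genes, the share that overlapped Etv5 regions was 1 of 7 at 100 kb. It stayed at 0 with overlap of 50% of both regions, with midpoints within 250 bp and with equal numbers of regions (1 region left). These settings could not raise it, because the Etv5 region closest to any of the 3 Etv4 regions was 127.0 kb away. The share could not be computed where no region was left. The share and patterns of Etv5 regions had no value because there were 0 regions. The ETS pattern was found in 0 and the AP-1 pattern in 1 of the 3 regions in 200 bp, in 500 bp and in the whole region, and CCGGAAGT alone in 0. No paired analysis was possible because there was only 1 library for each antibody. As the depth is unknown, a gene without a listed region cannot be told apart from one whose signal was below the calling threshold.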
